A study of Arabidopsis thaliana with 2 samples.

Results

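Runs of close TGA1-GFP peaks are stretches of the Arabidopsis thaliana genome where at least 3 ChIP-seq peaks followed each other with short gaps. Peaks were sorted by chromosome and start, neighbours were joined when at most 1000 bp lay between the end of one and the start of the next, and peaks in runs of 3 or more were kept. This gave 1354 of 8002 peaks, or 16.9%, in 391 runs. Chromatin immunoprecipitation with sequencing reads the DNA fragments that an antibody recovers with a chromatin protein. Here the chromatin came from roots of TGA1-GFP plants, fixed with 1% formaldehyde. One library is titled GFP, for the antibody that recovers TGA1 fused to green fluorescent protein, and one IgG, although the protocol text names GFP antibodies for both. Both came from TGA1-GFP plants, with 1 library each. No label states a promoter for the fusion, a line, an age or a growth condition. One list of peaks was deposited for the series, and it holds positions alone.

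TGA factors are bZIP transcription factors that bind DNA as dimers at elements with a TGACG core, and some promoters carry several such elements in a row. TGA1 and its closest relative TGA4 are known from salicylic acid defence and from the nitrate response of roots, where they act upstream of nitrate transporter genes. The study title places root TGA factors in the response to shoot-derived polypeptides when nitrogen supply fluctuates. The question asked of the runs is which genes lie under dense TGA1-GFP binding and how the peaks are laid out around them.

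The members were chosen by peak position, so run length, gap and span are descriptions of the choice. There was no replicate and the list holds no height, fold or p-value per peak, so no difference given here was tested. Beyond position, each peak has a width in bp and a place in the list, that is, its line in the deposited order, whose meaning no source states. The number of reads behind a peak is unknown. Intervals on shares are 95% Wilson intervals, cover counting error only, and treat peaks or genes as independent, which neighbouring ones are not. Coordinates are in TAIR10 and count from 1.

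Most runs were short. Of the 391 runs, 262 held 3 peaks, 92 held 4, 26 held 5, 7 held 6 and 4 held 7. They spanned 1409 to 10611 bp, with a median of 3030 bp (quartiles 2399 and 3987.5 bp), and together covered 1.33 Mb. Peaks filled a median of 63.5% of the span of their run, with a range of 33.3 to 92.8%. Longer runs spanned more: the median was 2605 bp for 3 peaks, 3956.5 bp for 4, 5549 bp for 5, 5771 bp for 6 and 7175 bp for 7. Some runs of 3 peaks were nonetheless as long as runs of 6, the longest being 6748 bp at ERF4.

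**Figure D1:**
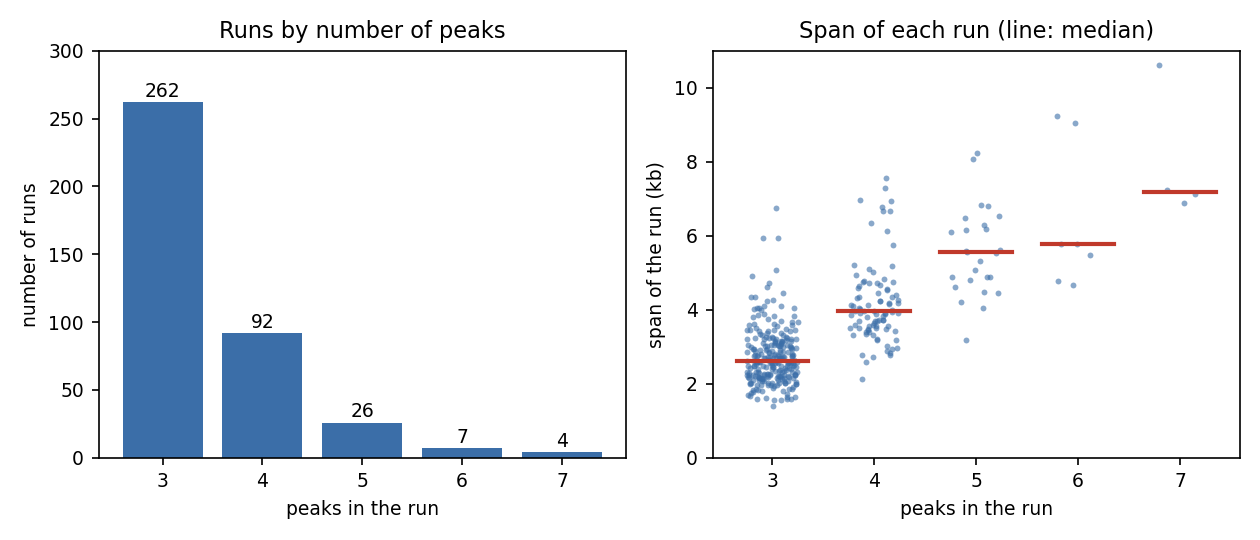
Left, bars give the number of runs (y axis, starting at 0) by the number of peaks in the run (x axis). Right, each point is 1 run, with its span in kb on the y axis and its number of peaks on the x axis (points spread sideways for clarity), and red lines are medians. Runs of 3 make up 262 of 391, and the median span goes with run size, from 2605 bp for 3 peaks to 7175 bp for 7.

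The limit of 1000 bp did not fall at a break in the gaps. Across the whole list 1923 of 7997 neighbouring pairs on a chromosome, 24.0%, lay within that distance. There were 275 pairs with gaps over 200 and up to 300 bp, 228 over 400 and up to 500 bp, 140 over 900 and up to 1000 bp, 124 over 1000 and up to 1100 bp and 58 over 1900 and up to 2000 bp. Within runs the 963 gaps had a median of 444 bp (quartiles 266 and 685.5 bp), and the smallest was 82 bp. Just inside the limit, the largest joining gaps were 993, 997 and 999 bp. Just outside it, gaps of 1001 and 1002 bp left lone peaks and pairs unjoined, and a gap of 1006 bp kept a run of 3 apart from a run of 4.

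Run peaks were wider than the other peaks of the list. Their median width was 492 bp (quartiles 371.25 and 720.75 bp, range 249 to 4142 bp), against 424 bp for the other 6648 peaks (quartiles 329 and 602.25 bp, range 249 to 4997 bp). Peaks of at least 1000 bp were 191 of 1354 run peaks, 14.1%, against 540 of 6648 other peaks, 8.12%. By size of run, from lone peaks up to runs of 7, the median width was 410, 460, 473.5, 491.5, 571, 524.5 and 522 bp. Of the 731 peaks of at least 1000 bp 26.1% were in runs, and of the 3412 peaks under 400 bp 12.8%. Peak ends set the gaps, so width is not independent of the rule.

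**Figure D2:**
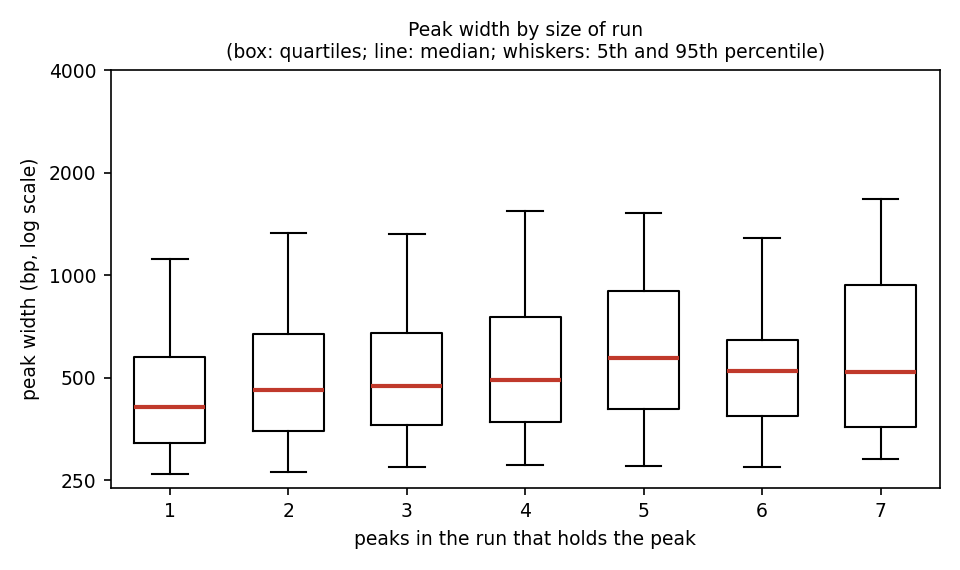
Boxes give quartiles of peak width in bp (y axis, log scale) for all 8002 peaks, grouped by the number of peaks in the run that holds them (x axis; 1 is a peak with no neighbour within 1000 bp). Red lines are medians and whiskers the 5th and 95th percentiles. Medians lie between 410 bp for lone peaks and 571 bp for runs of 5, and the boxes overlap throughout.

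Within a run the peaks were unequal. The widest was a median of 2.3 times as wide as the narrowest, and at most 13.7 times, and it took a median of 43.6% of the summed peak width. In 151 runs, 38.6%, at least 1 peak reached 1000 bp, while in 55 runs each peak was under 500 bp. A single run had all its peaks above 1000 bp: 3 peaks on chromosome 2 (9706290 to 9710918) between HAT9 (AT2G22800), a homeodomain-leucine zipper gene 72 bp away, and AT2G22805. The widest peak had no fixed place. In runs of 3 it was the middle one in 90 of 262, 34.4%.

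Run peaks were spread through the list and more frequent near its top. Of the first 1000 peaks 23.0% were in runs, of the second 1000 21.6%, and of places 5001 to 6000 13.5%. The share was 16.4% in the last 1002 places, close to that of the whole list. Runs mixed early and late peaks: the RAV1 run held places 293 and 7624, and the run at IAA16 held places 416 and 7998.

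The 5 chromosomes held runs at similar densities. Chromosome 1 had 108 runs (3.55 per Mb), chromosome 2 had 67 (3.4 per Mb), chromosome 3 had 71 (3.03 per Mb), chromosome 4 had 57 (3.07 per Mb) and chromosome 5 had 88 (3.26 per Mb). Of the peaks of each chromosome 16.2 to 17.6% were in runs. By full 1 Mb bins the median was 3 runs, the most 14, on chromosome 3, and 26 of 116 bins had none. Those 26 bins had a median of 95.5 protein-coding genes and 11.5 peaks, against 260.5 genes and 72 peaks over all bins, but they ranged in gene number up to 258 genes, with 52 peaks, in a bin of chromosome 1.

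Midpoints of run peaks were more often over 1000 bp from any annotated gene than those of other peaks. A run needs room, so the shares given here are not independent of the rule. Of run peak midpoints 34.1% (31.6 to 36.7%) were over 1000 bp from any annotated gene, against 15.5% (14.6 to 16.4%) of the other peaks. Outside genes and within 1000 bp of a gene end were 40.5% (37.9 to 43.1%) of run peaks, against 56.8% (55.6 to 58.0%) of the others. Inside protein-coding genes the shares were close, at 22.7% (20.6 to 25.1%) of run peaks and 25.9% (24.8 to 26.9%) of the others. Inside genes of other types lay 2.66% of run peaks and 1.85% of the others.

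The sequence between genes was long where runs lay. The gene-free interval, the sequence from one protein-coding gene to the next, had a median length of 4532 bp at the 1046 run peaks with midpoints outside protein-coding genes, against 2628 bp at the 4929 such other peaks. Over all 23810 gene-free intervals the median was 877 bp, and 18.0% reached 3000 bp. In 172 of 391 runs, 44.0%, every midpoint fell in 1 gene-free interval. Those intervals were 1706 to 17827 bp long, with a median of 5233 bp, and 143 of the 172 reached 3000 bp. A run of 3 peaks needs room, so the length of the interval cannot be told apart from the rule.

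The other runs reached into genes. In 143 runs, 36.6%, the midpoints fell in 1 gene-free interval and 1 gene, or block of overlapping genes, beside it. In 52 runs, 13.3%, they fell in at least 2 gene-free intervals, on both sides of a gene. In 9 runs they were all inside 1 gene or block, and the remaining 15 touched more than 1 block. A run overlapped 1 protein-coding gene in 219 cases, none in 95, 2 in 61, 3 in 15 and 4 in 1 case. Whole genes lay inside 89 runs. These 101 genes had a median length of 1269 bp, against 2078 bp for all protein-coding genes, which the span of the runs limits.

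A run spanned, that is overlapped by at least 1 bp, 386 of 27444 protein-coding genes, 1.41%. A peak of a run overlapped 380 genes, 1.38%, and any peak of the list overlapped 4080, 14.9%. Within 1000 bp of a run lay 636 genes, 2.32%. For the 386 genes the gene-free stretches to left and right, added together, had a median length of 4409.5 bp, against 2514.5 bp for the 3700 genes that overlapped a peak and no run, and 2212 bp for all protein-coding genes. Of the 386, 155 overlapped 2 or more run peaks and 39 overlapped 3 or more.

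The 4 runs of 7 peaks were of different kinds. The longest lay beside RAV1 (AT1G13260), an AP2/B3 domain transcription factor gene whose product restrains growth, on chromosome 1 (4531941 to 4542551, 10611 bp). Its 7 peaks were 462, 1674, 3930, 700, 367, 760 and 988 bp wide, in order of position, and filled 83.7% of the span. The last peak overlapped 384 bp of RAV1, and the other 6 lay in the gene-free interval between RAV1 and GATL3 (AT1G13250), a galacturonosyltransferase-like gene 1718 bp from the first peak. The 3930 bp peak was the widest and had its midpoint 5592 bp from RAV1.

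A run of 7 on chromosome 5 (26905525 to 26912754) started inside LBD37 (AT5G67420), a repressor of nitrate-responsive genes, and ran across AT5G67430 to the edge of NPY3 (AT5G67440), a gene of auxin-dependent organ formation. Its peaks were 579, 348, 1525, 539, 424, 505 and 1133 bp wide. A 3-peak run (26901023 to 26904247; 382, 1642 and 738 bp) lay on the other side of LBD37 and also entered it. Of the peaks in these 2 runs, 3 overlapped LBD37, and 3 of those farther along the run of 7 overlapped AT5G67430. The 1642 and 1525 bp peaks, at places 68 and 104, stood on opposite sides of LBD37.

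The run of 7 at IAA16 (AT3G04730), an Aux/IAA repressor of auxin response, was the most gene-internal of them (chromosome 3, 1285318 to 1292190). It held all of IAA16 and of PR4 (AT3G04720), a pathogenesis-related gene, and 4 of its midpoints were inside genes. Its peaks were 302, 924, 289, 425, 315, 280 and 1915 bp wide. IAA16 overlapped 5 of them, the most of any gene. The run of 7 beside DIS2 (AT1G30825), which encodes a subunit of the actin-nucleating ARP2/3 complex, overlapped no protein-coding gene (chromosome 1, 10953516 to 10960635). Its peaks of 1241, 363, 756, 255, 303, 489 and 910 bp lay in 1 gene-free interval of 11425 bp, and the last ended 272 bp from DIS2.

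**Figure D3:**
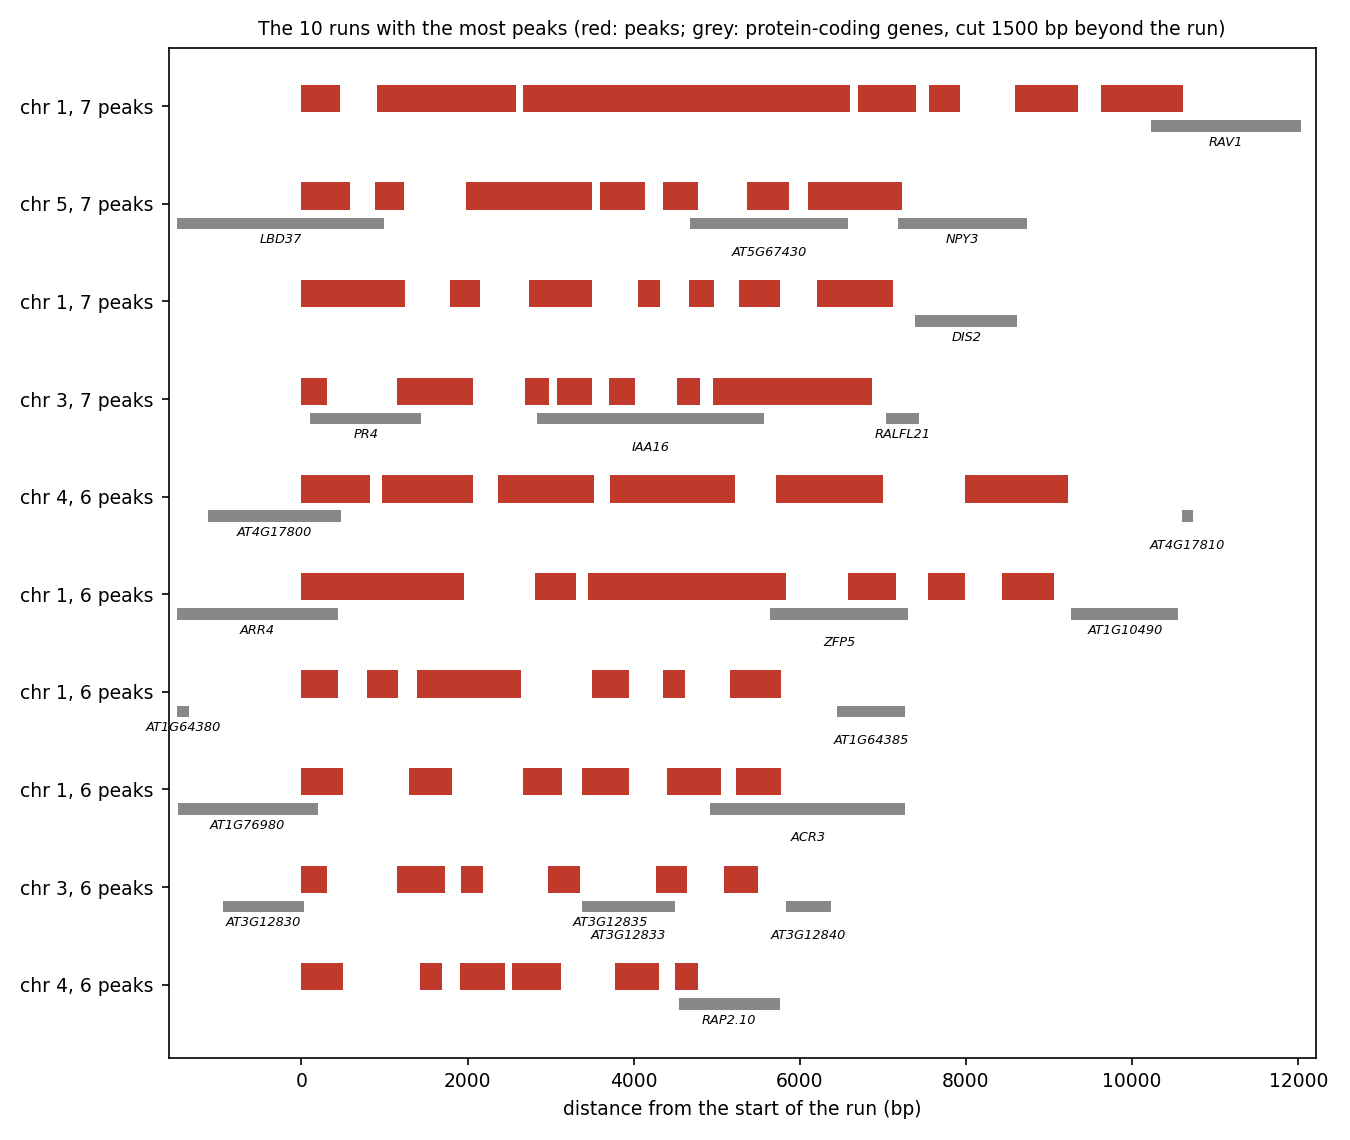
The 10 runs with the most peaks, drawn to scale from the start of each run (x axis, bp); rows are runs with their chromosome and number of peaks. Red boxes are peaks and grey bars protein-coding genes, drawn up to 1500 bp beyond the run. The 3930 bp peak of the RAV1 run stands out in width, and the runs at DIS2 and at AT1G64385 overlap no grey bar.

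Runs of 6 lay at 7 places, and the naming rule took 6 of them. The run from ARR4 to ZFP5 on chromosome 1 (3443921 to 3452978) spanned 9058 bp, with peaks of 1963, 500, 2376, 582, 436 and 627 bp. ARR4 (AT1G10470) dampens cytokinin signalling and overlapped 440 bp of the first peak; ZFP5 (AT1G10480), a zinc finger gene of root hair initiation, lay whole inside the run. The run at AT4G17800 on chromosome 4 (9896215 to 9905447) had 6 peaks of 824, 1104, 1159, 1504, 1291 and 1240 bp, so 5 of 6 passed 1000 bp. The widths here differed less among themselves than in the RAV1 run.

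The other named runs of 6 had narrower peaks. The run between AT1G76980 and ACR3 (AT1G76990), which encodes a protein with repeated ACT domains, had peaks of 505, 522, 469, 562, 655 and 535 bp. The run that ended inside RAP2.10 (AT4G36900), a DREB-type gene, had peaks of 502, 274, 539, 587, 527 and 278 bp. The run over AT3G12830 (a SAUR gene), AT3G12833 and AT3G12835 had peaks of 266 to 577 bp and filled 42.0% of its span. The run between AT1G64380 and AT1G64385 had 1 peak of 1254 bp at place 34 and 5 of 257 to 611 bp.

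Runs of 5 were also among those with the largest summed widths. At RAP2.4 (AT1G78080), a DREB-type gene of light and stress responses, 5 peaks of 3220, 645, 1323, 1302 and 432 bp covered 84.2% of 8224 bp (chromosome 1, 29359167 to 29367390), and the gene lay whole inside the run. At HA2 (AT4G30190), which encodes the main plasma membrane proton pump of roots, 5 peaks of 675, 2961, 400, 570 and 1294 bp spanned 8075 bp (chromosome 4, 14774986 to 14783060). The first was inside HA2, the second overlapped its end by 193 bp, and the others ran outward to within 3471 bp of VEL1.

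Among the runs that spanned the most genes, the one with 4 genes held both MT1A (AT1G07600) and MT1C (AT1G07610), metallothionein genes whose products bind metals, and cut into AT1G07590 and AT1G07615 (chromosome 1, 2338379 to 2342233). Its 4 peaks were 535, 1156, 1167 and 387 bp wide. J11 (AT4G36040), a small DnaJ chaperone gene, lay whole inside a run of 5 that reached ARO3 (AT4G36030) and AT4G36050, with peaks of 445, 603, 324, 633 and 909 bp; the 909 bp peak held place 43. The neighbours AT4G27652, AT4G27654 and AT4G27657, shared a run of 5 with peaks of 375 to 687 bp.

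Of 24 listed nitrogen regulators 4 were spanned, 16.7% (6.68 to 35.9%), against 1.41% of all: LBD37, LBD38, BT2 and HRS1. The median gene-free flank in the class was 4789 bp, against 2212 bp for all genes, and any peak overlapped 14 of the 24, 58.3%, against 14.9% of all. BT2 (AT3G48360), a scaffold protein gene linked to nitrogen use, carried 3 peaks of 268, 978 and 590 bp with midpoints in the gene and 2 of 666 and 1999 bp beyond it (chromosome 3, 17907926 to 17914217). LBD38 (AT3G49940), a relative of LBD37 with the same role, had 5 peaks of 549, 708, 473, 1174 and 367 bp on both sides and inside (chromosome 3, 18512960 to 18518582). HRS1 (AT1G13300), a repressor of nitrate starvation genes, had 3 peaks of 747, 600 and 433 bp in 1 gene-free interval, the last overlapping 44 bp of the gene (chromosome 1, 4554152 to 4556921).

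In nitrogen assimilation, 2 of 24 genes, 8.33% (2.32 to 25.8%), were spanned, the nitrate reductase genes NIA1 and NIA2. Any peak overlapped 7 of the 24, 29.2%, against 14.9% of all genes. NIA1 (AT1G77760) had peaks of 1431, 1052 and 496 bp, the widest farthest from the gene and next to AT1G77750 (chromosome 1, 29231792 to 29235841). NIA2 (AT1G37130) had 3 nearly equal peaks of 550, 538 and 613 bp, the first overlapping 266 bp of the gene (chromosome 1, 14161673 to 14164059). In nitrate and ammonium transport, 2 of 47 genes, 4.26%, were spanned, with an interval of 1.17 to 14.2% that held the 1.41% of all genes. Any peak overlapped 17 of the 47, 36.2%, against 14.9% of all. NRT1.7 (AT1G69870), which loads nitrate into phloem, had all 3 peaks, 480, 291 and 660 bp, inside the gene (chromosome 1, 26316394 to 26318404). PTR3 (AT5G46050) is listed under the NPF names but is described as a peptide transporter; its run of 308, 660, 543 and 714 bp overlapped 23 bp of it and held all of AT5G46060.

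Of the 10 TGA genes 2 were spanned, 20.0% (5.67 to 51.0%), against 1.41% of all protein-coding genes. Any peak overlapped 7 of the 10, 70.0%, against 14.9% of all. At TGA1 (AT5G65210) itself peaks of 431 and 426 bp were followed, 86 bp on, by one of 4142 bp, the widest of all run peaks, of which 966 bp overlapped TGA1, and the run also entered AT5G65207 (chromosome 5, 26052571 to 26058498). TGA7 (AT1G77920) had 3 peaks of 301, 796 and 479 bp, the last overlapping 198 bp of it, and shared them with AT1G77890 and AT1G77910. Of 21 class III glutaredoxins, the family of small redox proteins that holds the shoot-derived CEPD polypeptides, 1 was spanned, 4.76%, with an interval of 0.846 to 22.7% that held the 1.41% of all genes. Any peak overlapped 4 of the 21, 19.0%, against 14.9% of all genes. The single spanned gene was AT5G11930. Its run of 5 had peaks of 320, 377, 525, 955 and 573 bp (chromosome 5, 3844393 to 3848442). The first lay on one side of the gene, the second across its end and 3 on the other side.

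**Figure D4:**
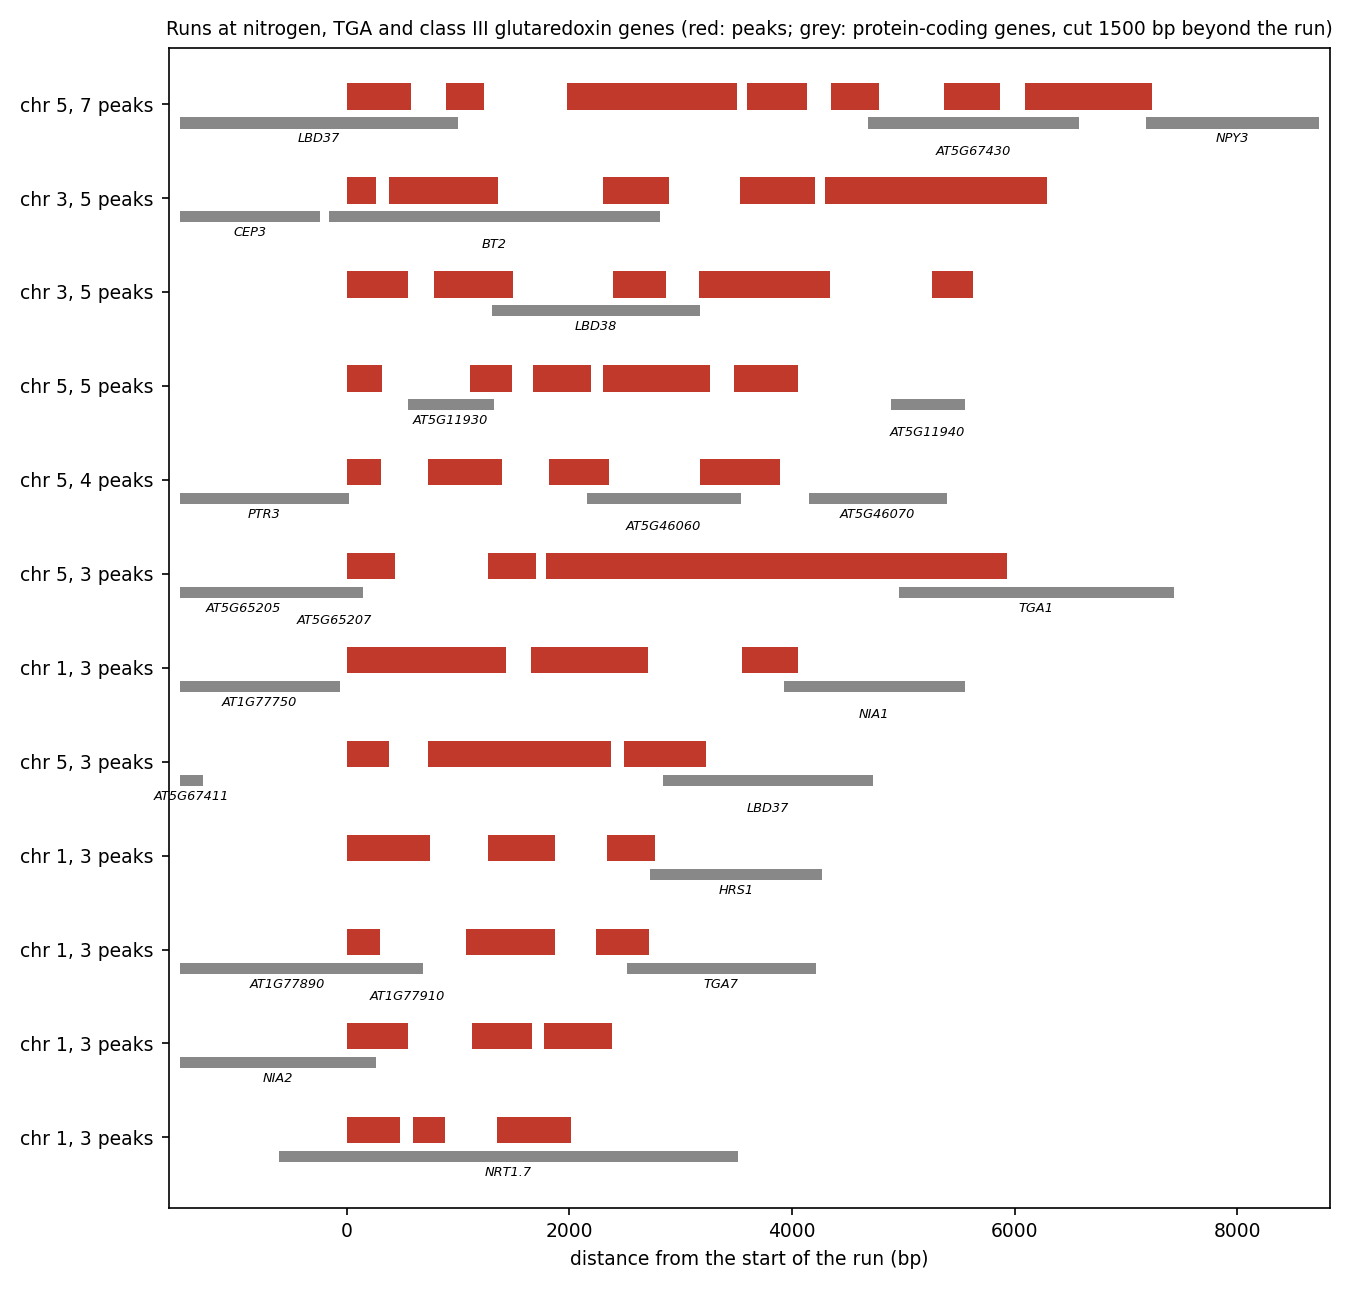
Runs at nitrogen, TGA and class III glutaredoxin genes, drawn to scale from the start of each run (x axis, bp), with red boxes for peaks and grey bars for protein-coding genes up to 1500 bp beyond the run. LBD37 appears in 2 rows because a run lies on each side of it, and the 4142 bp peak at TGA1 is the longest box.

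Transcription factor genes were counted by the family name in their symbol or synonyms, which leaves out members with other names. Of 420 genes named as WRKY, MYB, NAC, ERF or DREB or RAV, bHLH or bZIP, 31 were spanned, 7.38% (5.25 to 10.3%), against 1.41% of all protein-coding genes. Any peak overlapped 141 of the 420, 33.6%, against 14.9% of all. These genes had a median gene-free flank of 4711.5 bp, against 2212 bp. In ranges of flank length the spanned share was 2.38% (2 of 84) of the factor genes and 0.528% of all genes under 2000 bp, 6.38% (6 of 94) and 1.56% from 2000 to 4000 bp, 6.76% (10 of 148) and 2.78% from 4000 to 8000 bp, and 13.8% (13 of 94) and 2.54% from 8000 bp on. The factor genes had the higher share in each range, with few genes behind each value and no test.

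Genes listed by name as ERF, DREB or RAV, which share the AP2 domain, were spanned in 8 of 55 cases, 14.5% (7.56 to 26.2%), against 1.41% of all genes. Family members under other names were not counted. Any peak overlapped 28 of the 55, 50.9%, against 14.9% of all genes. With a gap of at most 500 bp 1 of 55 was spanned, 1.82%, against 0.452% of all genes, and with runs rebuilt from the earlier of 2 equal parts of the list none was. Besides RAV1, RAP2.4 and RAP2.10 these were ERF4 (AT3G15210), ERF-1 (AT4G17500), CBF1 (AT4G25490), ERF5 (AT5G47230) and ERF104 (AT5G61600). ERF4, a repressor of ethylene and jasmonate responses, had peaks of 888, 702 and 4138 bp (chromosome 3, 5119334 to 5126081), and its run held place 30. ERF-1, an ethylene-responsive activator, had peaks of 873, 549 and 1918 bp. ERF5 and ERF104, related genes of pathogen responses, lay in runs of 422, 463 and 1253 bp and of 327, 405 and 1910 bp. ERF5 overlapped 2 of its run peaks, and ERF104 overlapped only 1, the 1910 bp peak. The ERF104 run also spanned PFK4 and AT5G61590, and the ERF5 run AT5G47229. CBF1, a regulator of cold tolerance, had 4 narrow peaks of 488, 278, 296 and 482 bp.

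WRKY genes encode proteins that bind W-boxes in defence and stress genes. Of 72 WRKY genes 10 were spanned, 13.9% (7.72 to 23.7%), against 1.41% of all genes. With a gap of at most 500 bp 3 of 72 were spanned, 4.17%, against 0.452% of all genes. Any peak overlapped 33 of the 72, 45.8%, against 14.9% of all genes. WRKY11 (AT4G31550) had a run of 5 with peaks of 749, 455, 2536, 484 and 393 bp that held the whole gene (chromosome 4, 15289466 to 15295010). Its close relative WRKY17 (AT2G24570) had peaks of 1246, 1773 and 537 bp. WRKY6 (AT1G62300), a gene of senescence and phosphate and boron responses, had peaks of 431, 889, 1520 and 424 bp, with place 49 among them. WRKY65 (AT1G29280) had 4 peaks of 1031, 472, 1738 and 1817 bp over 6135 bp. WRKY72 (AT5G15130), known from basal defence, had peaks of 1540, 1462 and 417 bp. The others were WRKY23, WRKY57, WRKY69, WRKY38 and WRKY2, with widest peaks of 1101, 1102, 896, 897 and 456 bp.

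NAC genes were spanned in 7 of 100 cases, 7.0% (3.43 to 13.7%), against 1.41% of all genes. Any peak overlapped 32 of the 100, against 14.9% of all genes. NAC046 and NAC047 (AT3G04060 and AT3G04070) are neighbours, and their runs lay 1006 bp apart on chromosome 3. The NAC046 run had peaks of 800, 577 and 3144 bp (1055053 to 1059974), and the NAC047 run had peaks of 532, 395, 1193 and 3466 bp and reached APY1 (1060981 to 1067931). Both NAC046 and NAP (AT1G69490; peaks of 1126, 530 and 570 bp) act in leaf senescence. NAC083 (AT5G13180), a regulator of xylem vessel formation, had 4 peaks of 1089, 2075, 1776 and 886 bp over 7281 bp. ANAC087 (AT5G18270), which acts in programmed cell death of the root cap, had peaks of 264, 609, 325, 1327 and 486 bp, with place 16 among them. NAC3 and NAC041 had widest peaks of 1248 and 1618 bp.

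MYB genes were spanned in 6 of 125 cases, 4.8% (2.22 to 10.1%), against 1.41% of all genes: MYB58, MYB121, MYB45, MYB4, MYB68 and MYBR1. Any peak overlapped 25 of the 125, 20.0%, against 14.9% of all genes. MYB68 (AT5G65790), a root-expressed gene, had peaks of 406, 2188 and 295 bp, and MYBR1 (AT5G67300), a gene of abscisic acid response, 603, 1777 and 458 bp, both with the wide peak in the middle. MYB4 (AT4G38620), a repressor of phenylpropanoid genes, had 4 peaks of 402 to 525 bp. None of 22 genes named bHLH and none of 46 named bZIP were spanned, with intervals that ended at 14.9% and 7.71%. Members under other names were spanned: PIF3 (AT1G09530) and NAI1 (AT2G22770) encode bHLH proteins, and TGA1 and TGA7, bZIP genes, were counted on their own list.

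Of 134 genes with Aux/IAA, SAUR or ARF symbols or synonyms 8 were spanned, 5.97% (3.06 to 11.3%), against 1.41% of all protein-coding genes. Membership rests on these names alone. Any peak overlapped 26 of the 134, 19.4%, against 14.9% of all. The median gene-free flank was 3940.5 bp, against 2212 bp for all genes. Among the 8 spanned genes was ARF2 (AT5G62000), an auxin response factor that represses growth, with peaks of 2093, 1539, 654 and 1360 bp over 6960 bp. Another was ARF6 (AT1G30330), with 268, 590 and 698 bp. Of 24 ARR genes 2 were spanned, 8.33% (2.32 to 25.8%), against the same 1.41%. They were ARR4 and RR3 (AT2G41310), another type-A response regulator, with peaks of 775, 1105, 329 and 403 bp. Any peak overlapped 8 of the 24 ARR genes, 33.3%, and their median gene-free flank was 4523.5 bp.

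For several metabolic and other classes the interval held the 1.41% of all genes. Glutathione transferases had 1 of 49 (GSTU8), UGT glycosyltransferases 2 of 64, cytochrome P450s 2 of 234, ABC transporters 1 of 128, small peptides 1 of 151 (CLE14), and light-harvesting and photosystem genes 1 of 48 (LHCB4.3). No run spanned any of 149 receptor kinases, 31 disease resistance genes, 25 iron deficiency genes or 75 ribosomal protein genes. For the receptor kinases the interval ended at 2.51% and for the ribosomal proteins at 4.87%, and for the other lists it was wider. Any peak overlapped 14.9% of all protein-coding genes. The share was higher for receptor kinases (35 genes, 23.5%) and glutathione transferases (15 genes, 30.6%). It was also higher for UGT glycosyltransferases (34.4%), cytochrome P450s (17.9%), ABC transporters (20.3%) and iron deficiency genes (7 of 25). It was lower for disease resistance genes (12.9%), small peptides (6.62%), light-harvesting and photosystem genes (8.33%) and ribosomal protein genes (6.67%). The pair UGT76C1 and UGT76C2 (AT5G05870 and AT5G05860), neighbours that encode cytokinin N-glucosyltransferases, shared a run of 719, 576 and 348 bp. It was the 1 case, among 77 runs with 2 or more spanned genes, of spanned genes from the same list. The lists rest on names and do not cover every family. MT1A and MT1C, which are on none of them, also shared a run.

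**Figure D5:**
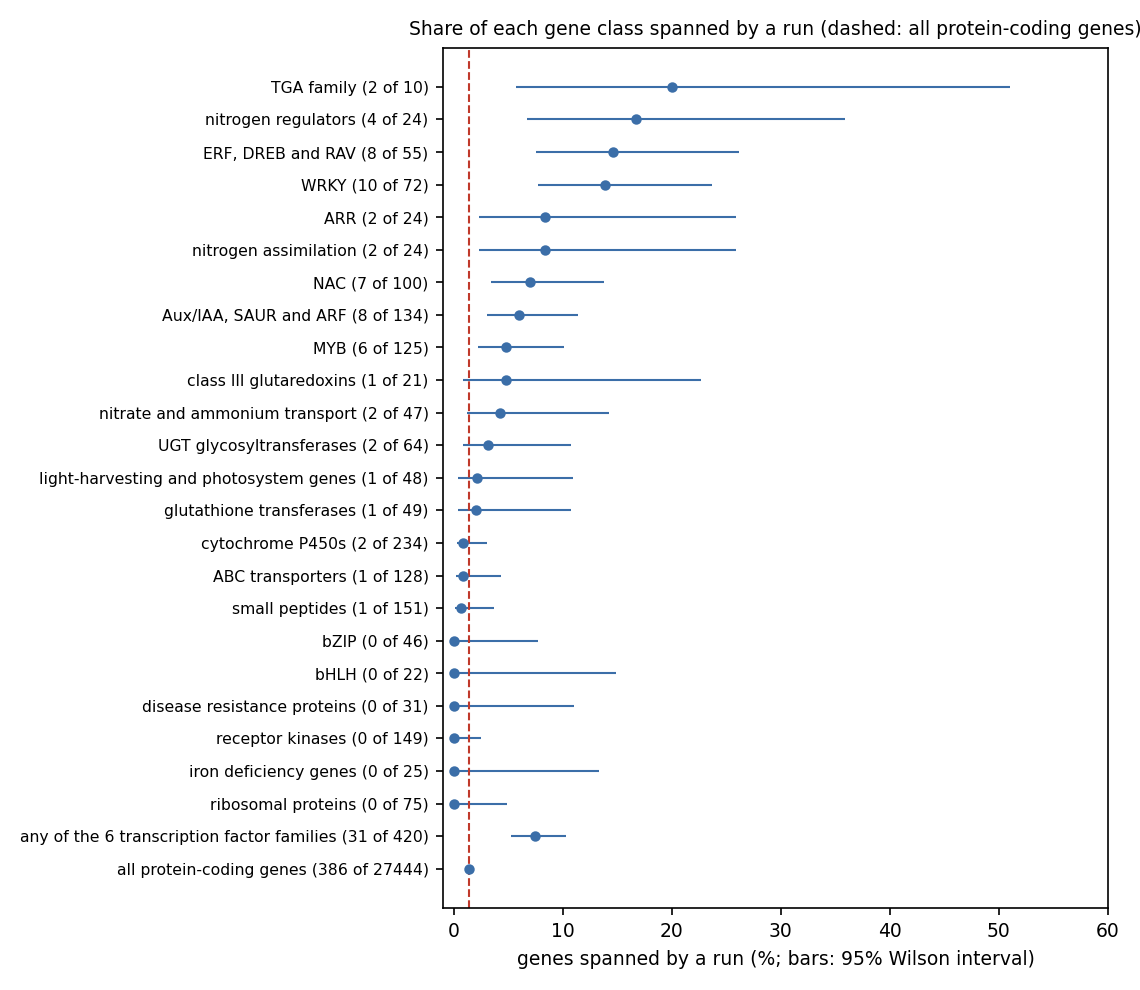
Points give the percent of genes in each class that a run spans (x axis) and bars the 95% Wilson interval over genes; rows are classes with their counts, and the dashed line is the 1.41% of all protein-coding genes. The TGA family is highest at 20.0%, with 2 of 10 genes. Nitrogen regulators, ERF, DREB and RAV, and WRKY genes lie between 13.9 and 16.7%. The dashed line crosses the intervals of glutathione transferases, UGT glycosyltransferases, cytochrome P450s and ABC transporters. It also crosses those of nitrate and ammonium transport and class III glutaredoxins, but not that of nitrogen assimilation, which rests on 2 of 24 genes.

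The 9 runs with all midpoints inside 1 gene or block lay in genes of 1718 to 7211 bp, against a median of 2078 bp for all protein-coding genes. They included RBOH F (AT1G64060), an NADPH oxidase gene, with narrow peaks of 279, 267, 455 and 296 bp. HEXO3 (AT1G65590), a hexosaminidase gene, had 4 peaks of 468, 619, 872 and 319 bp. GAD (AT5G17330), a glutamate decarboxylase gene that turns glutamate into GABA, had 440, 1177 and 384 bp. ABCG25 (AT1G71960), an abscisic acid exporter, had 1061, 302 and 376 bp, and OPT4 (AT5G64410), an oligopeptide transporter, 731, 376 and 616 bp. These genes were named after their values were seen.

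Of the 95 runs over no protein-coding gene, 63 were within 1000 bp of one, and the nearest gene was a median of 651 bp from the 95 runs. Of the 95, 15 overlapped a gene of another type. After the run near DIS2, large ones lay between RING (AT4G19700) and AK-HSDH II (AT4G19710), with peaks of 752, 721, 1527, 581 and 550 bp at 866 bp from RING, and 3266 bp from NCED3 (AT3G14440), the stress-induced gene of abscisic acid synthesis, with peaks of 590, 457, 989, 466 and 835 bp. On its other side NCED3 was itself spanned by another run, with peaks of 655, 370, 590 and 939 bp, of which 264 bp overlapped the gene. With no strand in the gene table, whether a run lies before or after a gene was not analysed here.

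Runs spanned 113 of 10455 annotated genes of other types, 1.08%, and any peak overlapped 500, 4.78%. Long non-coding RNA genes were 80 of 3480, 2.3%, and genes typed as other non-coding RNA 12 of 221, 5.43%. Runs spanned 2 of 3917 pseudogenes, 4 of 625 transfer RNA genes and 2 of 326 microRNA genes (MIR8166 and MIR8182). A long non-coding RNA gene overlapped 65 of the 391 runs.

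Few runs had another run nearby. The nearest run was a median of 72086 bp away, and 26 of 391 had one within 5000 bp. Overlap with 2 runs was found at 4 protein-coding genes: LBD37, HB16 (AT4G40060), GRF2 (AT1G78300) and BRG3 (AT3G12920). At HB16, a homeodomain-leucine zipper gene, 1 run had peaks of 500, 676, 1346 and 558 bp, the last centred inside the gene, and the other had peaks of 695, 485, 279 and 430 bp. They lay 1387 bp apart.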

How the data were processed

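The authors deposited 1 list of peaks with chromosome, start and end. The tools Bowtie2 and MACS2 and the build TAIR10 are named per the submitters' processing notes. Their versions, thresholds and filters, and any use of IgG as control, are not stated there. The deposited positions have no score or other value per peak, and depth is unknown. Starts were read by the BED convention. Genes came from a RefSeq table of TAIR10.1, which keeps the nuclear chromosomes of TAIR10 and gives no strand or exons. The table's symbols and synonyms set the gene classes. The members and lists were chosen with earlier results of these data known, and 5 of 28 classes were added after the files were seen.

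Named runs were the 10 with the most peaks, the 5 longest, the 5 with the most genes, the 5 of largest summed width, and those at nitrogen, TGA and class III glutaredoxin genes; other genes were chosen after their values were seen. Peaks were joined and counted with Python 3.11.15, numpy 2.4.6, pandas 2.3.3 and scipy 1.17.1, and the code was tested on simulated data. The planned search of promoters for TGACG was not run, since no sequence was used here. Alternatives were other gaps, run sizes, parts of the list, overlaps and annotations.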

Additional observations from a re-analysis of the deposited data

How the results depend on the processing

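The number of runs follows the rule. With a gap of 500 bp 485 peaks fell in 152 runs, with a median width of 525 bp, and with a gap of 2000 bp 2391 peaks in 639 runs. Asking for 4 or more peaks left 129 runs. Rebuilt from the earlier of 2 equal parts of the list, 278 peaks fell in 85 runs, and from the wider of 2 equal parts of the peaks 389 in 118. From the narrower part, an alternative chosen after seeing the data, 109 fell in 35. Fewer peaks in these parts leave fewer neighbours by construction. Counting genes wholly inside gave 101 genes and a median of 0 per run, and genes within 1000 bp gave 636 and a median of 2. With protein-coding genes alone as annotation, 37.2% of run peak midpoints lay within 1000 bp of a gene and 40.0% beyond. Nitrogen regulators were spanned in 1 of 24 cases with a gap of 500 bp, in 6 with 2000 bp, in 3 with 4 or more peaks, in 2 from the wider part and in 0 from the earlier part and the narrower part. In the order gap of 500 bp, gap of 2000 bp, 4 or more peaks, earlier, wider and narrower part, ERF, DREB and RAV genes were spanned in 1, 14, 4, 0, 3 and 0 of 55 cases, and WRKY genes in 3, 14, 5, 6, 5 and 0 of 72. The 6 transcription factor families pooled had the higher share, against all genes, in each of these: 1.67% against 0.452% (500 bp), 12.6% against 2.97% (2000 bp), 3.81% against 0.547% (4 or more peaks), 3.33% against 0.423% (wider part), 2.14% against 0.317% (earlier part) and, with 1 gene, 0.238% against 0.0911% (narrower part). No paired analysis was possible because each antibody had 1 library and the list holds no value per library. The share of promoters with TGACG was not run.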

Other observations

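Some runs hold peaks from the very top of the deposited list at genes not described above; these genes were chosen after their values were seen. The earliest run peak of all, at place 7, lay in a run of 3 at AT3G27880 (chromosome 3, 10335518 to 10338295), whose widest peak was 916 bp. Place 9 belonged to a run of 3 at AT1G32700 and place 11 to one at AT5G11090 that spanned 5938 bp with a widest peak of 3543 bp. A run over CAT1, a catalase gene, on chromosome 1 (7149681 to 7152650) held place 32. Of the first 500 peaks of the list 125 were in runs, and of the last 500 there were 83.

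AOX1A (AT3G22370), the stress-induced mitochondrial alternative oxidase gene, lay whole inside a run of 4 that reached TIC (AT3G22380), a circadian clock gene (chromosome 3, 7906363 to 7913153). Its peaks were 429, 344, 3248 and 1017 bp wide and 3 of them overlapped AOX1A. PIF3 (AT1G09530), a phytochrome-interacting factor gene, COR47 (AT1G20440), a dehydrin gene, CIPK16 (AT2G25090), a calcium signalling kinase gene, and SOS3 (AT5G24270), a calcium sensor gene of salt tolerance, also overlapped 3 run peaks each.

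Among the 5 classes added after the values were seen, runs spanned 3 of 40 LBD genes (LBD37, LBD38 and ASL1), 7.5% (2.58 to 19.9%). They spanned 4 of 66 homeobox genes (AtHB23, HB-1, HB16 and KNAT4), 6.06% (2.38 to 14.6%), and 2 of 36 CIPK and CBL genes, 5.56% (1.54 to 18.1%). AHA proton pump genes had 1 of 11, 9.09% (1.62 to 37.7%), and JAZ genes 0 of 12, against 1.41% of all protein-coding genes. Any peak overlapped 17.5%, 25.8%, 52.8%, 27.3% and 41.7% of these classes in that order, against 14.9% of all. Their median gene-free flanks were 4812, 5639.5, 2766.5, 10907 and 2947 bp, against 2212 bp. No replicated test was run on these counts.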
